A study of Arabidopsis thaliana with 39 samples.

Results

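The 2 mature strands of the Arabidopsis thaliana MIR824 hairpin, miR824-5p and miR824-3p, were followed through 13 growth and stress conditions. They were taken by name from 9 tables of small RNA read counts, 1 for each stress, and are 2 of the 353 distinct mature miRNA sequences counted. All plants were wild-type Columbia-0 with no mutation or transgene. For drought, rosette leaves of 27-day-old plants were collected at the milder level (D30, with the watered control C30) and of 30-day-old plants at the severe level (D20, with the watered control C20). The sample labels write the milder and the severe level as 30% and 20% of field capacity, whereas the control labels and the study use soil water content. For heat, 15-day-old seedlings were taken before (H0) and after 0.5 h (H0.5) or 6 h (H6) at 37 °C. The other 15-day-old seedlings were untreated (C) or spent 24 h in 250 mM sodium chloride (NaCl+), without copper (Cu-), in 10 µM copper (Cu+), in 10 µM cadmium (Cd+) or without sulfur (S-). Each condition had 3 biological replicates, and so 3 small RNA libraries, 39 in all.

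In plants a miRNA hairpin is cut by DICER-LIKE1, which frees a short duplex of its 5′ and 3′ arms. Usually 1 strand, the guide, is loaded into ARGONAUTE1 and directs the cutting of matching mRNAs, while the other, the star strand, is degraded. The known regulator of the MIR824 hairpin is miR824-5p. Its target is the mRNA of AGL16, a MADS-box transcription factor of guard cells that promotes extra divisions in the stomatal lineage and delays flowering. The pair is therefore known in leaves for setting the number of higher-order stomatal complexes and in seedlings for its part in the floral transition.

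Both strands are shown first, since every read count below stands for a match to 1 of these sequences. They are written 5′ to 3′ in DNA letters as the tables give them, with the seed, bases 2 to 8, in capitals.
miR824-5p: tAGACCATttgtgagaaggga
miR824-3p: cCTTCTCAtcgatggtctaga
Each strand was 21 bases long and matched the genome assembly TAIR10.1 at a single place. Both lay on the plus strand of chromosome 4 inside the annotated MIR824 gene (AT4G24415, chr4:12625094-12625782), miR824-5p at chr4:12625128-12625148 and miR824-3p at chr4:12625721-12625741. The arms were 572 bases apart, and the stretch from one end of the pair to the other spanned 614 bases. miR824-5p began with T, which is U in RNA and the first base that ARGONAUTE1 is known to prefer, and miR824-3p with C. None of the other 351 sequences had the seed of either strand. The nearest sequence to miR824-5p was miR830-3p at 7 edits, and the nearest to miR824-3p was miR156c-3p at 9 edits, which 3 others equalled. Trimmed or extended forms of a strand were counted together with it.

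The duplex is shown because the strand ratio below compares its arms, with the bases that pair in capitals.
miR824-5p: TAGACCATTtGTGAGAAGGga
miR824-3p: CCTTCTCATcGATGGTCTAga
RNAduplex placed 18 base pairs, 2 of them G:U, with a predicted energy of -28.1 kcal/mol, and left 1 unpaired base on each strand inside the duplex and the last 2 bases of each strand free. The target site was searched on both strands of the 5 nuclear chromosomes, allowing 3 mismatches. At the MIR824 locus the full complement of miR824-5p, on the minus strand, lay in a coding exon of the annotated gene AT4G24413. For miR824-5p the search found, outside its own locus, a single site, in AGL16 (AT3G57230, chromosome 3, plus strand). The site is shown because it is the sequence through which the strand is known to act, with its 1 difference from full complementarity in capitals.
AGL16 site: tcTcttctcacaaatggtcta
It lay at chr3:21180537-21180557, and its 1 mismatch was a G:U pair. The site was in the last exon of all 5 annotated AGL16 transcripts. In 4 of them it was inside the coding sequence, and in NM_001339845.1 it began 434 bases after the stop codon. For miR824-3p the search gave 3 sites outside its own locus, each with 3 mismatches, in AT3G08870, in AT5G27300 and within AGL16 at chr3:21179850-21179870, where no exon is annotated. These matches describe sequence only, and AGL16 mRNA was not measured in the files used here.

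Sequencing depth was even, at 10238448 to 10741289 reads a library, genome mapping was 91.9 to 99.1% and RNA integrity numbers were 8.0 to 9.3. Reads counted as miRNAs ranged from 2643250 to 5036688 in the 36 libraries outside salinity, but from 1018693 to 1733990 in the 3 NaCl+ libraries. The miRNA share of mapped reads was 13.3 ± 3.45% in NaCl+ against 39.5 ± 2.29% in C (SD, n = 3). An exact permutation test for a difference in either direction gave p = 0.10, the smallest that 3 against 3 libraries can give, and 0.45 adjusted over the 9 stress comparisons. The other 8 comparisons differed by at most 4.51 percentage points. Levels below are reads per 1000000 miRNA reads of the library (CPM), and for salinity also reads per 1000000 genome-mapped reads. Only mature miRNAs were counted, so the organ labels could not be checked against marker genes. In such whole-organ samples a lower level in each cell and fewer cells that make the miRNA cannot be told apart.

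Over all 39 libraries miR824-5p had the higher mean, 97.5 CPM, and stood at position 56 of 353 sequences. miR824-3p had a mean of 61.9 CPM and stood at position 64. The read counts behind these levels were 132 to 646 per library for miR824-5p, with a median of 327, and 113 to 482 for miR824-3p, with a median of 175. The guide outnumbered the star in 35 libraries, both were equal in 2, and miR824-3p was ahead in 2. A balance of this kind was uncommon among the hairpins counted. Strands with an identical sequence at several loci were counted together, which can shift the ratios of such hairpins. Its part in the comparison that follows was not tested. Of 49 hairpins with at least 10 reads on both strands in 3 or more libraries, 8 had strands within 2-fold of each other at the median library. miR824 was the fifth most even, at a median log2 ratio of 3p to 5p reads of -0.62, where the median distance from 0 was 4.70 over the 49.

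**Figure D1:**
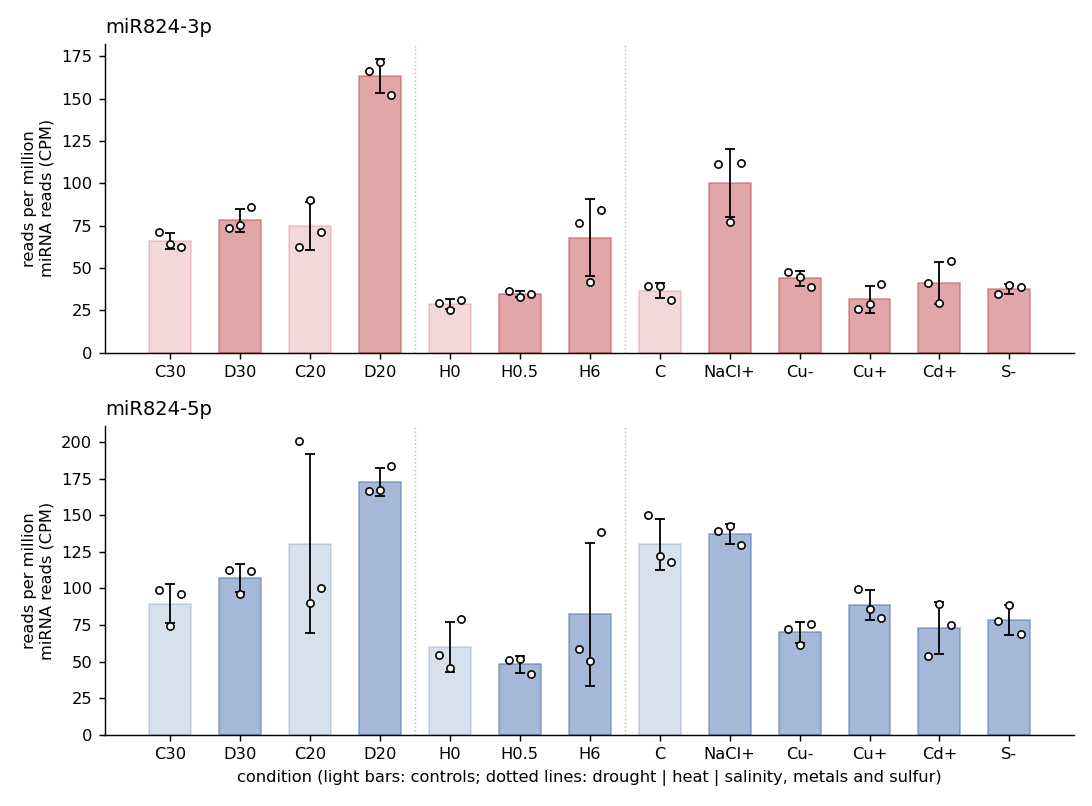
Level of miR824-3p (upper panel) and miR824-5p (lower panel) in CPM, reads per 1000000 miRNA reads, in each of the 13 conditions. Bars are means, error bars the SD over 3 libraries, circles single libraries and light bars controls; on this scale both strands were at their highest mean in D20, and C20 and H6 each held 1 library with much more miR824-5p than the other 2.

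On the CPM scale miR824-3p was highest in severely dried leaves, at 163.6 ± 10.0 CPM in D20 (SD, n = 3). NaCl+ followed at 100.2 ± 19.9 CPM, and D30, C20, H6 and C30 lay between 66.0 and 78.2 CPM. The other seedling conditions lay together from 28.8 ± 3.05 CPM in H0 to 43.9 ± 4.48 CPM in Cu-. Of the 12 pairs of neighbours in this order, the ranges of 10 overlapped, and only the steps from D20 to NaCl+ and from C30 to Cu- separated all libraries. The place of NaCl+ depended on the scale. In reads per 1000000 genome-mapped reads D20 was still first at 45.6 ± 1.46 and H6 second at 29.9 ± 7.90, while NaCl+ was last at 12.99 ± 2.01.

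In CPM miR824-5p was also highest in D20, at 172.6 ± 9.60 CPM. It was followed by NaCl+ at 137.2 ± 6.73 CPM, C20 at 130.5 ± 61.2 CPM and C at 130.2 ± 17.5 CPM. The lowest means were those of H0 at 59.9 ± 17.1 CPM and H0.5 at 48.2 ± 5.78 CPM. Again 10 of 12 neighbouring pairs overlapped, the exceptions being D20 over NaCl+ and C over D30. In reads per 1000000 genome-mapped reads C was first at 51.5 ± 9.11 and D20 second at 48.4 ± 6.90, and NaCl+ was last at 18.5 ± 5.56. Across the 13 condition means the levels of the strands had a Pearson r of 0.74 on the log2(CPM + 1) scale, given as a description, since conditions differ in organ, age and experiment. Over the 39 libraries r was 0.63. Both values hold for CPM alone, and the order of the conditions differed on genome-mapped reads. The untreated seedlings of the 2 experiments differed too. C held 36.7 ± 4.61 CPM of miR824-3p and H0 28.8 ± 3.05, a smaller gap than that of miR824-5p, and these groups were set side by side without a test because medium and experiment differed between them.

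Under severe drought miR824-3p rose. The star strand was at 62.3, 90.2 and 71.3 CPM in C20 and at 166.6, 171.8 and 152.4 CPM in D20, so every dried sample lay above every watered one. Fold changes and tests below are from edgeR on the read counts with TMM scaling, which weighs the bulk of the miRNAs rather than the total, and a call is an adjusted p under 0.05 over all sequences tested. The log2 fold change of miR824-3p was 0.85 (SE 0.24, adjusted p = 0.0389), a 1.80-fold rise. It was 1 of 15 sequences called higher among 167 tested, which is 8.98%, and 25.7% had CPM ranges that lay apart in that direction. Without D20 replicate 1, 2 or 3 or C20 replicate 3 the edgeR call was not made (adjusted p = 0.0694 to 0.108, log2 fold change 0.82 to 0.99). Over the other alternatives the adjusted p ran from 0.000647 to 0.0582.

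The guide did not pass the test in the same leaves. miR824-5p was at 200.9, 90.2 and 100.4 CPM in C20 and at 166.6, 167.6 and 183.7 CPM in D20, and the groups overlapped through C20 replicate 1 alone. The log2 fold change of the guide was only 0.17 (SE 0.27, adjusted p = 0.695). Without that library it was 0.61 with an edgeR adjusted p of 0.0481, while leaving out any of the other 5 gave values from 0.13 upwards and no call. In C20 replicate 1 miR824-3p was the lowest of its group, and the strands summed to 263.3 CPM there beside 180.4 and 171.7 CPM in the other C20 libraries.

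Mild drought changed neither strand by the test. miR824-3p was at 71.3, 64.2 and 62.6 CPM in C30 and at 73.3, 75.4 and 86.0 CPM in D30. The ranges did not overlap, as for 15.1% of 166 sequences in that direction, but the log2 fold change was only 0.13 (SE 0.18, adjusted p = 0.812). miR824-5p, at 98.8, 74.4 and 96.0 CPM in C30 and 112.7, 96.0 and 112.2 CPM in D30, overlapped, and its difference was 0.12 on the log2 scale (SE 0.19, adjusted p = 0.844). In this comparison edgeR called 1 of the 166 sequences (0.602%). The miRNAs called in either direction by the difference between severe and mild drought made up 3.39% of 177. The effect of severe drought on miR824-3p exceeded that of mild drought by 0.83 on the log2 scale (SE 0.30), which did not pass the interaction test (adjusted p = 0.118, unadjusted 0.0153). Among the alternatives of that test the adjusted p ran from 0.0466, with a filter of 10 CPM in 3 libraries, to 0.278.

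**Figure D2:**
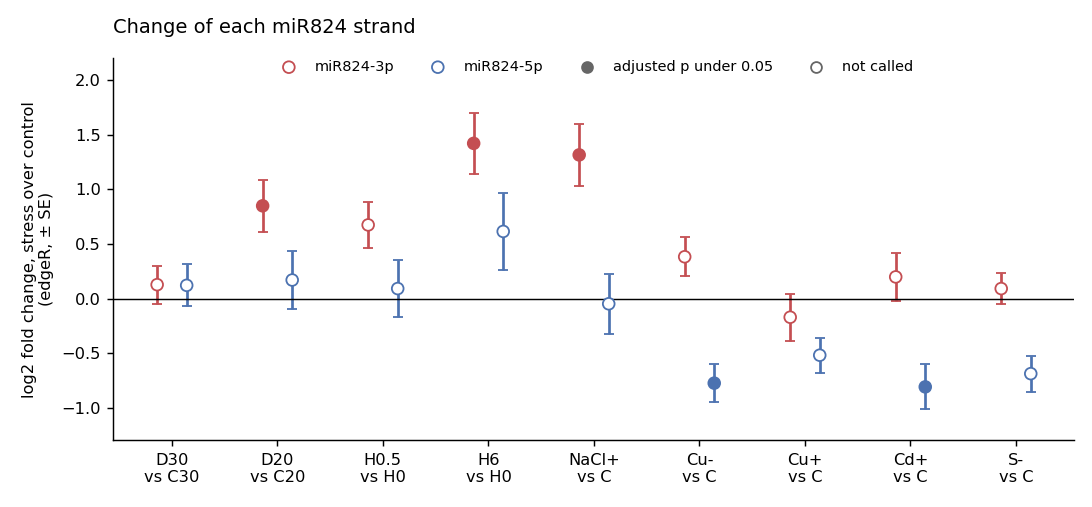
Log2 fold change of miR824-3p and miR824-5p in the 9 stress comparisons (vertical axis, edgeR, error bars ± SE, 3 against 3 libraries). Filled points passed an adjusted p of 0.05: miR824-3p in D20, H6 and NaCl+, all above 0, and miR824-5p in Cu- and Cd+, both below 0.

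After 6 h at 37 °C miR824-3p rose. In H0 miR824-3p was at 29.6, 25.4 and 31.3 CPM, and in H6 at 76.8, 41.9 and 84.5 CPM, so the heated seedlings lay apart from the unheated ones, although H6 replicate 2 rose less than the others. The log2 fold change was 1.42 (SE 0.28, adjusted p = 0.0283), a 2.68-fold rise. Only 2 of 162 sequences were called higher (1.23%), and 3.09% had CPM ranges apart in that direction. By replicate number the deviations of H6 and H0 correlated (0.351 to 0.722), whereas those of replicate 3 of H0.5 and H0 did not (-0.165). With the number as a block the log2 fold change was 1.40 (edgeR adjusted p = 0.000832), and the sequences called went from 11 to 19. The block was chosen from these same counts, after all stress comparisons were screened, and not from the labels. Its adjusted p is therefore that of a selected fit and not an independent test of the rise. The unblocked call was not made by edgeR without H6 replicate 1 or 3 or any 1 of the H0 libraries (adjusted p = 0.127 to 0.210), nor with scaling to total miRNA or genome-mapped reads, without the low-count filter or in a one-way F test on CPM (0.0532 to 0.341).

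Heat for 0.5 h left the strands without a call. miR824-3p was at 36.3, 32.8 and 34.8 CPM in H0.5, above all 3 H0 libraries, and its log2 fold change came to 0.67 (SE 0.21, adjusted p = 0.193). Over the 9 other settings the fold change ran from 0.27, on total miRNA reads, to 0.67 on the log2 scale, with no call. Ranges apart upwards were found for 3.68% of the sequences, and 1.23% were called higher. Between the heated groups the level of miR824-3p was higher at 6 h by 0.94 on the log2 scale (SE 0.30, adjusted p = 0.204), with ranges apart as for 5.59% of sequences, and 0 of 161 sequences were called higher by edgeR (0.0%). In either direction 18 had an unadjusted p under 0.05 and DESeq2 called 10. The joint fit of all 39 libraries did call it, with an adjusted p of 0.00217, where the other alternatives reached up to 0.664.

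miR824-5p was not called at either heat time. It was at 54.6, 45.9 and 79.0 CPM in H0, at 51.3, 51.7 and 41.5 CPM in H0.5 and at 58.5, 50.2 and 138.5 CPM in H6. The groups overlapped at both times, with H6 replicate 3 above and H0.5 replicate 3 below every H0 library. The log2 fold change was 0.09 (SE 0.26, adjusted p = 0.981) at 0.5 h and 0.61 (SE 0.35, adjusted p = 0.519) at 6 h, and without H6 replicate 3 the latter was -0.07.

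Under salinity miR824-3p rose within the miRNA reads, and the result depended on what the reads were divided by. miR824-3p was at 39.5, 39.1 and 31.3 CPM in C and at 111.5, 77.3 and 111.9 CPM in NaCl+. The log2 fold change was 1.32 (SE 0.28, adjusted p = 0.00343), a 2.49-fold rise, and leaving out any 1 library kept the edgeR adjusted p at or under 0.00632. Over the other alternatives the adjusted p ran from 3.48e-05 to 0.681, and the call was lost on genome-mapped reads and, at 0.0525, in the F test on CPM. It was 1 of 32 sequences called higher, 20.5% of those tested, and 32.1% had CPM ranges apart upwards, so such a rise was common in these libraries. miR824-5p was at 150.2, 121.9 and 118.3 CPM in C and at 139.4, 142.5 and 129.6 CPM in NaCl+, within the range of the control. The guide thus came to -0.05 on the log2 scale (SE 0.27, adjusted p = 0.898).

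In reads per 1000000 genome-mapped reads the values under salinity turned. miR824-3p was then at 16.3, 14.4 and 12.6 in C and at 15.0, 12.9 and 11.01 in NaCl+, and the groups overlapped. Scaled to mapped reads, edgeR put miR824-3p at -0.15 on the log2 scale (adjusted p = 0.681). miR824-5p was at 61.95, 45.0 and 47.7 in C and at 18.8, 23.8 and 12.7 in NaCl+, all salt-treated libraries below all controls, as for 71.8% of the sequences tested, and edgeR called it at -1.48 (adjusted p = 0.000122). On this scale 71.2% of the sequences were called lower and 3.85% higher, so a lower value was the common one. The median of all sequences tested was -1.33 on this scale and 0.13 with TMM. A fall of the miRNAs and a rise of other small RNAs in the salt-treated seedlings cannot be told apart here. The gain of miR824-3p on miR824-5p within a library is the same on either scale by construction.

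**Figure D3:**
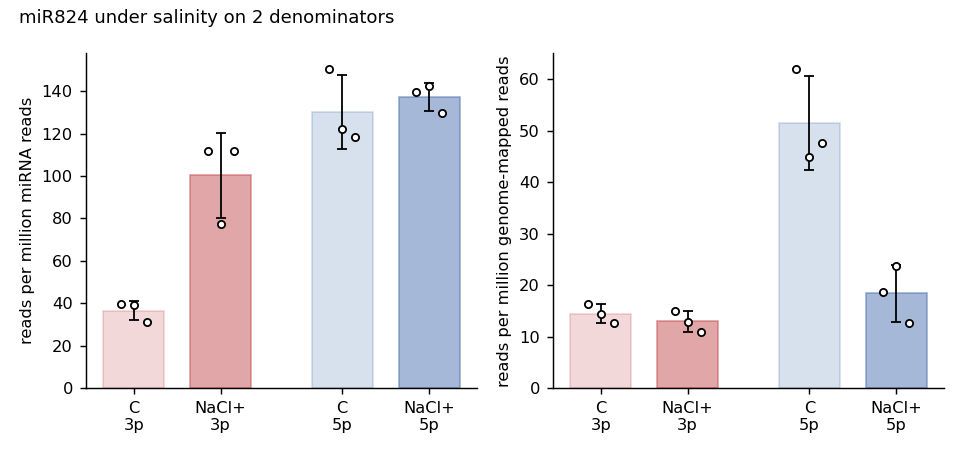
Both strands in the 3 C and 3 NaCl+ libraries, in reads per 1000000 miRNA reads (left) and reads per 1000000 genome-mapped reads (right). Bars are means, error bars the SD and circles libraries; on the left miR824-3p is higher in NaCl+ and miR824-5p overlaps, on the right miR824-3p overlaps and miR824-5p is lower in NaCl+.

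In the copper, cadmium and sulfur treatments miR824-5p was called lower in Cu- and Cd+ but not in Cu+ or S-, and miR824-3p was called in none of them. All 4 were compared with the same 3 C libraries (150.2, 121.9 and 118.3 CPM of miR824-5p), so their differences are not independent of each other. Without copper miR824-5p was at 72.3, 61.7 and 76.0 CPM, with no overlap with C. The fitted level was 0.584 of the control, a log2 fold change of -0.78 (SE 0.18) with an adjusted p of 0.0292. It was 1 of 4 sequences called lower among 162 tested (2.47%), while 18.5% had CPM ranges apart downwards. The edgeR call was not made without C replicate 1, 2 or 3 or without Cu- replicate 1 or 3 (adjusted p = 0.0531 to 0.165, log2 fold change -0.97 to -0.65), and without Cu- replicate 2 it was kept. Over the other alternatives the adjusted p ran from 0.00720 to 0.114.

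Cadmium excess also came with less of the guide. miR824-5p was at 54.0, 89.5 and 75.4 CPM in Cd+, all below C, as for 18.8% of 160 sequences. The fitted level was 0.571 of the control, or -0.81 on the log2 scale (SE 0.21, adjusted p = 0.0351), and 5.0% of the sequences were called lower. Without any 1 of the Cd+ libraries or without C replicate 1 the edgeR call was not made (adjusted p = 0.0532 to 0.245, log2 fold change -1.04 to -0.60). Over the other alternatives the adjusted p ran from 0.00323 to 0.336.

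The same strand was below C in copper excess and sulfur deficiency too, without passing. In Cu+ it was at 99.9, 85.7 and 80.1 CPM, or -0.52 on the log2 scale (SE 0.16, adjusted p = 0.187). In S- it was at 78.0, 88.8 and 68.7 CPM, or -0.69 on the log2 scale (SE 0.17, adjusted p = 0.629, unadjusted 0.00401). Ranges apart downwards were found for 13.7% of 161 sequences in Cu+ and 4.97% of 161 in S-, and called lower were 0.0% in both. By replicate number the deviations of Cu+ and C correlated weakly (0.189 to 0.329), and those of Cu- and the same controls did not (-0.458 to 0.047). With the number as a block, chosen from these counts and not from the labels, miR824-5p was at -0.51 in Cu+ (edgeR adjusted p = 0.143). The sequences called in Cu+ in all were 2 without the block, 0 with it and 6 by DESeq2, and 20 had an unadjusted p under 0.05. edgeR called 0 sequences in S- in either direction, where 8 had an unadjusted p under 0.05 and DESeq2 also called 0.

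miR824-3p passed the test in none of these 4 treatments. It was at 47.9, 44.8 and 39.03 CPM in Cu-, at 25.5, 28.4 and 40.7 CPM in Cu+, at 40.9, 29.2 and 54.0 CPM in Cd+ and at 34.4, 40.0 and 38.9 CPM in S-, and every group overlapped C. The log2 fold changes were 0.38 (SE 0.18) in Cu-, -0.17 (SE 0.22) in Cu+, 0.20 (SE 0.22) in Cd+ and 0.09 (SE 0.14) in S-, with edgeR adjusted p from 0.191 to 0.911. As a check on the copper labels, the miRNAs known to rise when copper is short were read in the same fits. None of miR397a, which acts on laccases, miR398b-3p,c-3p, which acts on copper superoxide dismutases, miR408-3p, which acts on plantacyanin, and miR857, which acts on a laccase, was called in Cu- or Cu+. In Cu- their log2 fold changes were -0.22, 0.27, 0.13 and -0.34 (edgeR adjusted p = 0.263 to 0.830), and in Cu+ -0.34, -0.72, -0.63 and 0.02 (0.445 to 0.959). miR398b-3p,c-3p was scarce, at 3.59 CPM in C, 3.94 in Cu- and 2.07 in Cu+. It had 247 reads in all C, NaCl+, Cu-, Cu+, Cd+ and S- libraries together, so its change could hardly be read. In C miR397a, miR857 and miR408-3p were at 76.7 ± 20.9, 118 ± 30.4 and 1076 ± 592 CPM (SD, n = 3), so miR408-3p varied widely between the control libraries.

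The ratio of the strands removes library scaling, since both are read from the same library. It was 0.263, 0.321 and 0.265 miR824-3p reads per miR824-5p read in C, the lowest mean of the 13 conditions (0.283 ± 0.0327). The highest were D20 at 1.00, 1.02 and 0.83, and H6 at 1.31, 0.834 and 0.610. All 12 neighbouring pairs of conditions overlapped in their ratio, and none of the steps separated all libraries. In the order of the 13 means C was at position 4 for miR824-5p and at position 10 for miR824-3p.

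**Figure D4:**
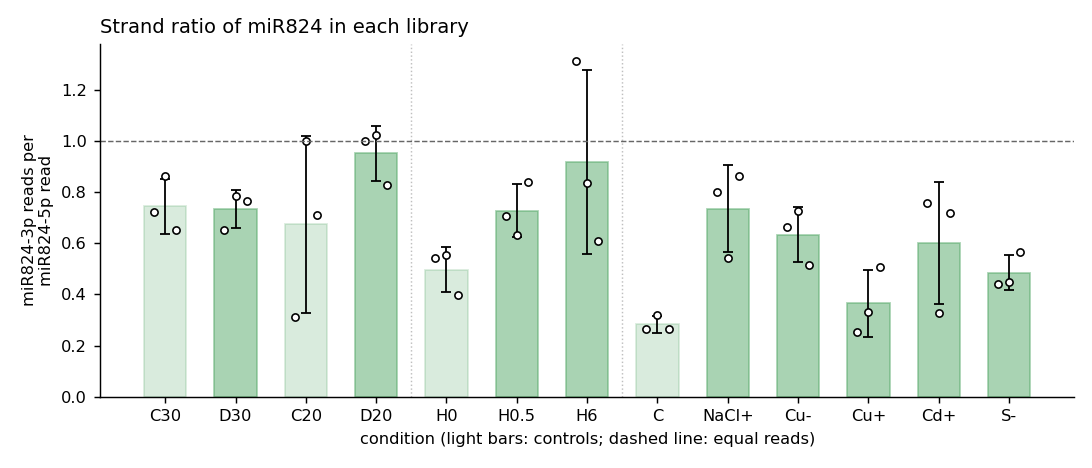
miR824-3p reads per miR824-5p read in each library (circles) with the mean (bar) and SD over 3 libraries in the 13 conditions. C holds the lowest mean, 0.283, and C20, H6 and Cd+ the widest spread; the dashed line marks equal reads, which few libraries reach.

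In 2 comparisons the ratio changed by limma on log2((3p reads + 0.5)/(5p reads + 0.5)), adjusted over all hairpins with enough reads on both strands. Both were against the C libraries, whose mean ratio was the lowest of all conditions. The changes in NaCl+, Cu-, Cu+, Cd+ and S- share these controls and are not independent of each other. In NaCl+ the ratio was 0.80, 0.543 and 0.864, every library above C, and its log2 change was 1.35 (SE 0.38, adjusted p = 0.0106). The limma call was not made without C replicate 1 or 3 (adjusted p = 0.0616 and 0.0605, log2 change 1.30 and 1.31). Of 37 hairpins 40.5% were called higher and 43.2% had ratios apart upwards, and the median change of all was 0.47. miR824 was the eleventh largest rise, so its shift was one of many. The hairpins with the smallest adjusted p were miR172e and miR172b, whose 3p strands act on AP2-like floral regulators, at -3.21 (SE 0.36) and -2.88 (SE 0.38), and miR408 at 3.09 (SE 0.40). The ratios of miR172e and miR172b share their 5p reads (miR172b-5p,e-5p) and are not independent. Hairpins that share a strand were counted separately in the shares above.

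In Cu- the ratio was 0.662, 0.726 and 0.514, again all above C, and its log2 change was 1.15 (SE 0.21, adjusted p = 0.0240). Here 3 of 38 hairpins were called, all higher (7.89%), 23.7% had ratios apart upwards and the median change was 0.28. The other 2 were miR472, known for acting on disease resistance genes, at 1.41 (SE 0.15), and miR396a, which acts on growth-regulating factors, at 1.29 (SE 0.27). Without C replicate 1 or 3 or Cu- replicate 1 or 2 the limma call for miR824 was not made (adjusted p = 0.0565 to 0.138, log2 change 1.05 to 1.11). Over the other alternatives the adjusted p ran from 0.0138 to 0.101.

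The remaining changes of the ratio did not pass. Cadmium came nearest in size among them, with ratios of 0.757, 0.326 and 0.717, a log2 change of 0.99 (SE 0.37) and a limma adjusted p of 0.142. Without Cd+ replicate 2, which had the lowest ratio of its group, the change was 1.38 with an adjusted p of 0.0270. Sulfur deficiency, at 0.441, 0.450 and 0.566, lay wholly above C with a log2 change of 0.77 (SE 0.21, adjusted p = 0.341). Ratios apart upwards were found for 27.0% of 37 hairpins in Cd+ and for 5.26% of 38 in S-, and 5.41% and 0.0% were called higher.

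The same held for drought and heat, where the star strand was called and the guide was not. In D20 the ratio was higher by 0.65 on the log2 scale (SE 0.46, limma adjusted p = 0.303), and without C20 replicate 1, whose ratio was 0.310 beside 1.00 and 0.711, the value was 0.17. In H6 it was 0.83 (SE 0.37, adjusted p = 0.155), with all H6 libraries above the H0 values of 0.541, 0.553 and 0.397, as for 22.0% of 41 hairpins, and 9.76% were called higher. The strands were therefore not shown to respond differently to severe drought or to 6 h of heat. Mild drought gave -0.02 (SE 0.26), 0.5 h of heat 0.55 (SE 0.30) and copper excess 0.31 (SE 0.31), all with limma adjusted p of 0.362 or more.

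**Figure D5:**
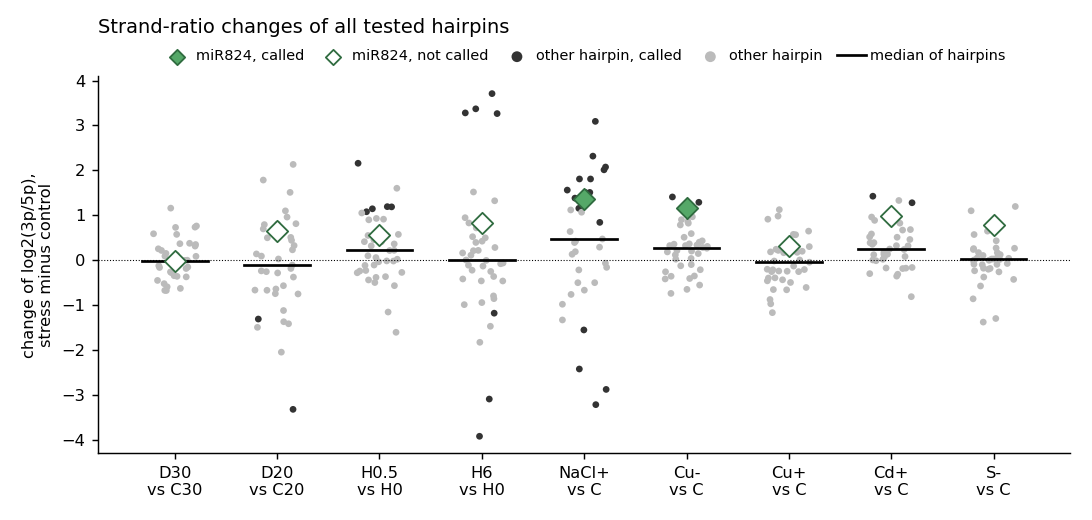
Change of the log2 ratio of 3p to 5p reads for every hairpin tested (36 to 41 per comparison), with miR824 as a diamond, called hairpins dark and the median as a line. The miR824 diamond is filled in NaCl+, among many called hairpins, and in Cu-, among 3.

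miR824 was set beside 39 sequences of other miRNA families that touch flowering time. The families were miR156 and miR157 (which act on SPL genes), miR172 (AP2-like genes) and miR159 (GAMYB-like genes). The list also held miR319 (TCP genes), miR169 (NF-YA genes) and miR399 (PHO2). Both strands of these hairpins were included, and the targets named are those of the guide strands. In severe drought 3 of the 24 tested were called higher and 3 lower, against 8.98% and 10.8% of all 167, and their median log2 fold change was -0.19 beside -0.11 over all. miR399b,c-3p was higher by 1.63 (SE 0.34, 16.5 against 4.44 CPM) and miR159a by 1.12 (SE 0.25, 4254 against 1633 CPM), and miR172b-5p,e-5p was lower, at -1.09 (SE 0.24).

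At 6 h of heat the list had 1 of 30 higher, miR156h at 2.28 (SE 0.33, 1300.2 ± 689 against 297.1 ± 57.6 CPM), and 1 lower, miR399c-5p at -3.70 (SE 0.83, 1.87 ± 0.461 against 28.7 ± 28.9 CPM). Over all 162 sequences 1.23% were higher and 5.56% lower, and the median was 0.32 in the list beside 0.07 over all. In salinity 10 of 29 were higher and 5 lower, against 20.5% and 12.8% of all, with a median of 0.34 beside 0.13. The smallest adjusted p belonged to miR169b-5p,c at -4.49 (SE 0.39, 2.54 against 51.4 CPM), miR169b-3p at -2.65 (SE 0.44) and miR172b-5p,e-5p at 1.90 (SE 0.32). The last is the 5p arm and not the 3p arm that acts on AP2-like genes. The log2 ratio of 3p to 5p reads changed by -3.21 in miR172e and by -2.88 in miR172b. Scaled to genome-mapped reads, 1 of the 29 was called higher and 17 lower, against 3.85% and 71.2% of all, with a median of -1.05 beside -1.33 over all. Family members with near-identical sequences can share reads.

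In Cu- 3 of 27 were called higher, against 8.02% of all. They were miR159b-3p at 1.42 (SE 0.22, 181.7 against 74.4 CPM), miR159a at 1.00 (SE 0.18) and the scarce miR319a,b at 1.36 (SE 0.33, 5.34 against 2.26 CPM). In Cd+ 6 of 26 were higher and 1 lower, against 6.25% and 5.0% of all, led by miR157a-3p,b-3p at 1.18 (SE 0.19, 7319 against 3291 CPM), miR156f-3p at 1.52 (SE 0.30) and miR319a,b at 1.68 (SE 0.30). The medians were 0.11 and 0.05, beside 0.11 and -0.01 over all sequences.

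The 77 sequences with neighbouring numbers, miR820 to miR870, are mostly young miRNAs of the Arabidopsis lineage. In severe drought 2 of 29 were called higher and 2 lower, against 8.98% and 10.8% of all, with a median of -0.11 both in the list and over all. The leading one was miR866-5p at 2.88 (SE 0.27, 36.8 against 4.19 CPM), followed by miR851-3p at -1.64 (SE 0.35) and miR829-3p.1 at -0.85 (SE 0.20). At 6 h of heat 1 of 27 was called, miR861-5p at -2.79 (SE 0.64), where 5.56% of all were lower and 1.23% higher. In salinity 1 of 26 was higher, miR823, which acts on the DNA methyltransferase CMT3, at 1.29 (SE 0.25), and 3 were lower, among them miR861-5p at -2.61 (SE 0.43) and miR829-3p.1 at -1.25 (SE 0.42), against 20.5% higher and 12.8% lower of all. Scaled to genome-mapped reads, 0 of the 26 were called higher by edgeR and 21 lower, against 3.85% and 71.2% of all, with a median of -1.21 beside -1.33, and the uncalled miR823 was at -0.15.

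In Cu- 1 of 29 of these was called, miR843 at 0.80 (SE 0.17), where 8.02% of all were higher and 2.47% lower. In Cd+ 2 of 28 were higher and 2 lower, against 6.25% and 5.0% of all, among them miR837-3p at -0.70 (SE 0.14), miR851-3p at 1.15 (SE 0.26) and miR843 at 0.53 (SE 0.13). The list medians lay between -0.11 in D20 and 0.24 in NaCl+ over these 5 comparisons.

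Over the 13 condition means the sequences most like each strand were not the same. Likeness was Pearson's r of log2(CPM + 1) among 123 other sequences with a mean of at least 10 CPM, and is given as a description on the CPM scale alone. For miR824-3p the first 5 were miR396b-5p (0.90), which acts on growth-regulating factors, miR159a (0.85), miR5653 (0.82), miR159b-3p (0.81) and miR4228-3p (0.80). For miR824-5p they were miR161.2 (0.89), which acts on PPR genes, miR173-5p (0.88), which triggers trans-acting siRNAs, miR822-5p (0.85), miR5643a,b (0.82) and miR400 (0.82), which also acts on PPR genes. miR824-5p was position 9 in the order for miR824-3p, and miR824-3p position 17 in that for miR824-5p. The 13 points also differ in organ, age and experiment, whose part in these correlations was not tested.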

How the data were processed

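The deposited read counts were made by the authors from small RNA libraries: sequences under 17 nt were removed, the rest matched to mature miRNAs of miRBase 21 plus 4 added sequences, and unmatched reads trimmed at both ends for another attempt. Mapping to TAIR10 used Bowtie 1.0.0. RNA quality was deposited as an integrity score for each library. The tables also hold CPM, means, fold changes and p-values, which were not used. The 431 names were merged into 353 sequences.

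edgeR 4.0.16 (R 4.3.3) compared the counts (quasi-likelihood test, TMM, filterByExpr with count 10 as minimum, Benjamini-Hochberg adjustment, SE from the F statistic), and strand ratios with limma 3.58.1 (trend, pseudocount 0.5, 10 reads on both strands in 3 libraries). DESeq2 1.42.0 was an alternative. The fits were also run on simulated counts for D20 and NaCl+ only, and no result given here rests on that. RNAduplex was version 2.7.2. Replicate numbers paired H6 with H0 (correlations of deviations 0.351 to 0.722) and Cu+ with C (0.189 to 0.329), from the data and not from the labels.

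Both members and the lists were chosen with earlier results of these data known. Besides both strands and the copper miRNAs, named were the 5 sequences most like each strand and, where a strand or the ratio was called, the 3 called list members or hairpins of smallest adjusted p.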

Additional observations from a re-analysis of the deposited data

How the results depend on the processing

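Every fold change of either strand and every change of the ratio was recomputed under 9 other settings for the strands (8 for the difference between severe and mild drought, where the F test on CPM could not be fitted), 7 for the ratio, and without each library in turn. Of the 273 values with all libraries, 241 kept direction and side of the threshold, 17 lost a call, 3 gained one and 12 turned. Of the 216 with a library left out, 176, 24, 2 and 14 did so. Among the 12 that turned, miR824-3p in NaCl+ on genome-mapped reads also lost its call. All other values here are log2 fold changes, or log2 changes of the ratio, with adjusted p from the same tool. Where no cause is named, the cause was not tested. The levels by condition, relative to the mean of the 13 conditions, were recomputed in reads per 1000000 genome-mapped reads alone. There 8 of the 13 for miR824-3p and 9 for miR824-5p moved by more than the SD, with NaCl+ going from 1.62 to 0.63 and from 1.41 to 0.55.

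Scaled to genome-mapped reads, NaCl+ gave -0.15 for miR824-3p and -1.48 for miR824-5p, which was then called, H6 gave 1.19 for miR824-3p and Cd+ -0.83 for miR824-5p, both no longer called. Scaling to total miRNA reads gave 1.23 for miR824-3p in H6, no longer called, and 0.076 for miR824-5p in NaCl+. In NaCl+ the latter was 0.026 with a filter of 10 CPM in 3 libraries and 0.076 in the F test. Without a filter miR824-3p in H6 was 1.32 and lost its call. The F test on CPM called no strand anywhere, with 1.13 (D20), 1.24 (H6) and 1.45 (NaCl+) for miR824-3p and -0.90 (Cu-) and -0.83 (Cd+) for miR824-5p. The uncalled value of miR824-5p in H0.5 turned to -0.093 with RLE scaling, -0.31 with total miRNA reads, -0.25 with genome-mapped reads, -0.11 without a filter, -0.053 with the CPM filter, -0.092 in DESeq2, -0.31 in the F test and -0.18 in the joint fit. The joint fit lost miR824-5p in Cu- (-0.70) and Cd+ (-0.65) and the ratio in Cu- (1.15), and gained miR824-3p between H6 and H0.5 (0.94). A filter of 1 read lost the ratio in Cu- (1.15), and the CPM filter gained the severe minus mild difference of miR824-3p (0.97).

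With the replicate number as a block, miR824-3p in D20 (0.88, adjusted p = 0.0582), miR824-5p in Cu- (-0.77) and Cd+ (-0.82) and the ratio in Cu- (1.15) lost their calls. In these comparisons the labels give only a shared number, and the correlations of deviations reached -0.458. For the pairs that the data paired, H6 with H0 and Cu+ with C, the block changed no call of a strand or the ratio.

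Leaving out 1 library gave these ranges where a call or direction changed. For miR824-3p they were 0.77 to 1.16 in D20, 1.09 to 1.52 in H6 and -0.056 to 0.35 in Cd+. For miR824-5p they were -0.053 to 0.23 in D30, 0.13 to 0.61 in D20, -0.12 to 0.33 in H0.5, -0.070 to 0.76 in H6, -0.18 to 0.085 in NaCl+, -0.97 to -0.65 in Cu-, -1.04 to -0.60 in Cd+ and -0.067 to 0.53 for severe minus mild drought. For the ratio they were -0.11 to 0.093 in D30, 1.22 to 1.56 in NaCl+, 1.05 to 1.30 in Cu-, 0.78 to 1.38 in Cd+ and -0.018 to 0.53 between H6 and H0.5.

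The number of sequences called moved with the tool, from 33 to 2 in D20, 52 to 16 in NaCl+ and 17 to 0 in Cu- by the F test, from 52 to 117 in NaCl+ on genome-mapped reads, from 17 to 0 in Cu- and 18 to 8 in Cd+ with the block, and from 18 to 0 in Cd+ in the joint fit. Total miRNA reads moved the median of all sequences by 0.26 in D20 and -0.39 in H0.5 from TMM. Each strand rests on 113 to 646 reads a library and 3 libraries a group.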
